A study of Mus musculus with 13 samples.

Results

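MHC class I antigen presentation genes were followed in single hypothalamic microglia of mice on control diet (NC) or on high-fat diet (HFD, 60% fat). The 6 genes were taken by name. *H2-D1* and *H2-K1* encode the heavy chains of the classical class I molecules of this strain, *B2m* encodes their light chain beta-2-microglobulin, *Tap1* and *Tap2* encode the pair of subunits of the peptide transporter, and *Tapbp* encodes tapasin, which holds the empty class I molecule at that transporter. All 6 were present among the 17727 genes that the 13 plate tables have in common. *H2-D1* and *H2-K1* were absent from the gene list of the authors' filtered table and were read from the plate tables.

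Class I molecules carry short peptides, cut from proteins inside the cell by the proteasome, to the surface, where CD8 T cells read them. Peptides enter the endoplasmic reticulum through the transporter, and the loading complex, with tapasin, calreticulin and Pdia3, places them on the heavy chain before it leaves. Microglia are the resident macrophages of the brain, and class I genes are among the genes they raise in interferon responses and with age. Class II molecules are a separate family that displays peptides from ingested material to CD4 T cells.

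The study fed male C57BL/6J mice chow or HFD, sorted CD45lo CD11b+ cells singly into plates of 192 wells and counted transcripts by CEL-Seq2, a 3' end method that tags each transcript molecule with a unique molecular identifier (UMI). The groups were control diet and HFD for 1 day, 3 days, 1 week, 4 weeks, 9 weeks and 16 weeks, all without any genetic modification. The ages of the animals were not stated. Well names on plates 4 to 13 hold a number of weeks apart from the length of HFD, whose meaning was not stated. On plate 1 the names of the single control replicate hold 4 weeks in 64 wells and 10 weeks in 32 wells, beside HFD wells of 4 weeks. The number is 9 on plates 6 to 9, 14 on plates 4 and 5 and 24 on plates 10 to 12. On plate 13 it is 24 for the 16-week replicates and 2 control replicates, and 14 for the 3-day and 1-week replicates and the other 2 control replicates. The sort is a limit of the groups as a model of microglia, since a cell of another type that falls in the gate is sequenced with them. Wells with at least 1500 transcripts were kept, which left 1617 of 2496 wells, of which 722 were control wells, 161 were from 1 day, 121 from 3 days, 172 from 1 week, 128 from 4 weeks, 82 from 9 weeks and 231 from 16 weeks of HFD.

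Counts were summed over the wells of each replicate on each plate, which gave 68 sums, 28 of control diet and 40 of HFD, from 44 replicates and with 22794 to 219392 transcripts each. Replicates are identifiers in the table of wells and may not each be a separate mouse, so the p-values below measure the spread between these samples only. Markers of microglia summed to between 21848 and 38065 CPM (a level, given as transcripts per 1000000 transcripts of the sum) in every one of the 68 sums, and 99.8% of wells had at least 3 UMIs of them. Of 6 neutrophil markers only 1 was in all plate tables. It reached 12923 CPM in a 4-week sum, where the control sums had 0 CPM, and 1.56% of the 4-week wells had at least 3 UMIs of it. Plates 4 and 5 stood apart. Their only control replicate, M26, kept 7 of 24 wells on plate 4 and 0 of 24 on plate 5, and 33 of the 41 wells with at least 5 UMIs of class II genes lay on these plates. No well name was found on more than 1 plate.

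In the genome the 6 genes lie at 2 places (GRCm38, GENCODE annotation, all protein coding). *B2m* is on chromosome 2 from 122147686 to 122153083 on the plus strand. The other genes lie within the MHC region of chromosome 17. *Tapbp* runs from 33915899 to 33929292, *H2-K1* from 33996017 to 34000347 on the minus strand, *Tap1* from 34187553 to 34197225, *Tap2* from 34203527 to 34216321 and *H2-D1* from 35262730 to 35267499. Because CEL-Seq2 reads come from transcript ends, the last 500 bases of each gene were compared with all other genes. Of the 50-base words in that stretch, 9.53% of those of *H2-D1* also occurred in another gene (80 genes in all), 0.443% of those of *H2-K1* occurred in another gene (*H2-D1* alone), and none of those of *B2m*, *Tap1*, *Tap2* and *Tapbp* did. *H2-K1* was not among the genes that shared the most words with *H2-D1*. How the authors' counting treated reads that map to several genes was not given in the sources used here. The counts of *H2-D1* and *H2-K1* are uncertain to that extent.

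The promoters of the heavy chains, the light chain and tapasin are shown because the first 3 genes varied together in the sums described below and *Tapbp* did not vary with them. The sequences are the 180 bases before the transcription start in RefSeq (GRCm38.p6), written 5' to 3' on the strand of the gene. Capitals mark matches on either strand to 4 short motifs, which are AANNGAAA (the core of an interferon regulatory factor site), GGGGATTCC (the kappa B site of enhancer A), TGACG (the X2-type box) and CCAAT. A match on the opposite strand appears as the reverse complement of these letters, and no matches overlapped each other.
B2m, chr2:122147507-122147686, plus strand: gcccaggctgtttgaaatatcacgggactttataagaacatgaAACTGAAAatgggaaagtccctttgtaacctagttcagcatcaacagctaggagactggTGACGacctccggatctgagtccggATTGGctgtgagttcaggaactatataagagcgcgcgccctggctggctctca
H2-D1, chr17:35262914-35263093, plus strand: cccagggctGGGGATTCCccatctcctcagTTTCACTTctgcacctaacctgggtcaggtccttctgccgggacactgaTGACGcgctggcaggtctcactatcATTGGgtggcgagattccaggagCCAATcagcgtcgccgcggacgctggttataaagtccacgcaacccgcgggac
H2-K1, chr17:34000348-34000527, minus strand: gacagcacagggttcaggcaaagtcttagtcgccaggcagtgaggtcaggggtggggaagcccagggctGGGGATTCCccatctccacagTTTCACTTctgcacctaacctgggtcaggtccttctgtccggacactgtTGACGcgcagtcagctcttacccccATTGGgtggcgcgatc
Tapbp, chr17:33919298-33919477, plus strand: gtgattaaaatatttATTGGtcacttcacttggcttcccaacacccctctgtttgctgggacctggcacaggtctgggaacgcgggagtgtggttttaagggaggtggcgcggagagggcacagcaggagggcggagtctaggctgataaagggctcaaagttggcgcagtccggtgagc

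Searched over the 250 bases before the start, AANNGAAA was found in *B2m*, *H2-D1* and *H2-K1* and in 21.3% of all 32851 promoters, and GGGGATTCC was found in *H2-D1* and *H2-K1* and in 0.213% of promoters. TGACG was found in *B2m*, *H2-D1*, *H2-K1* and *Tap1* and in 17.8% of promoters, and CCAAT in these 4 and in *Tapbp* and in 33.8% of promoters. *H2-K1* has 2 starts there, of which the first is printed. Both were searched and held all 4 motifs, and the second start has a further CCAAT match at -6 to -2. *Tap2* had no entry in the promoter table and was not searched. The heavy chain promoters share a run of 47 identical bases, while *H2-D1* and *B2m* share a longest run of 8. The match to a motif is a description of the sequence and says nothing of whether a factor was bound in these cells.

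The heavy chains were read at low counts per cell. *H2-D1* had a mean of 1.88 UMIs per well and at least 1 UMI in 64.9% of the 1617 wells, and *H2-K1* had a mean of 1.41 UMIs and was seen in 59.2%. When each well was thinned to 1500 UMIs, so that wells of different depth could be compared, the shares of wells with a UMI were 46.1% for *H2-D1* and 40.2% for *H2-K1*. These shares therefore depend on depth and are no count of cells that express the gene.

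In the 19 control replicates the level of *H2-D1* ran from 197 CPM through a median of 457 CPM to 1215 CPM. The 6 replicates of 1 day of HFD ran from 356 CPM through a median of 412 CPM to 622 CPM. The 4 replicates of 3 days stood at 588, 678, 883 and 889 CPM. All of the 3-day replicates were above the control median and below the highest control replicate. The 5 replicates of 1 week stood at 601, 749, 844, 1001 and 1069 CPM. The 3 replicates of 4 weeks stood at 427, 699 and 962 CPM, and the 2 replicates of 9 weeks at 493 and 641 CPM. The 5 replicates of 16 weeks, at 482, 528, 577, 614 and 637 CPM, again lay above the control median and inside the control range. In every length the HFD replicates thus overlapped the control replicates.

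Control levels of *H2-D1* differed between plates. Among the 12 plates with control wells the control level ran from 367 CPM on plate 2 to 1215 CPM on plate 9, a 3.31-fold range around a median of 432 CPM. Plate 7 had the next highest control level, 810 CPM, and plates 7 and 9 also held replicates of 1 week of HFD. Compared within plates, *H2-D1* at 1 week was higher than control on plate 7 (1069 against 810 CPM) and on plate 13 (1001 against a mean of 574 CPM), nearly level on plate 4 (616 against 569 CPM), and lower on plate 9 (844 against 1215 CPM). The HFD replicates were therefore not on the same side of control on all plates. Some plates repeat replicates, since plates 2 and 3 hold sums of the same 2 replicates and plates 10 to 12 hold sums of the same 8, so they are not separate samples. At 16 weeks *H2-D1* was higher than the control mean on 5 of 6 plates, with every HFD sum above every control sum on plates 2, 3 and 10. Plates 2 and 3 held 1 sum of each diet, and plate 10 held 4 control sums of 354 to 548 CPM and HFD sums of 669 and 988 CPM. At 9 weeks the same 2 HFD and 4 control replicates gave different directions on different plates, since both HFD sums of *H2-D1* were below every control sum on plate 10 (255 and 274 CPM) and above every control sum on plate 11 (628 and 869 against 375 to 519 CPM), and overlapped control on plate 12.

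**Figure D1:**
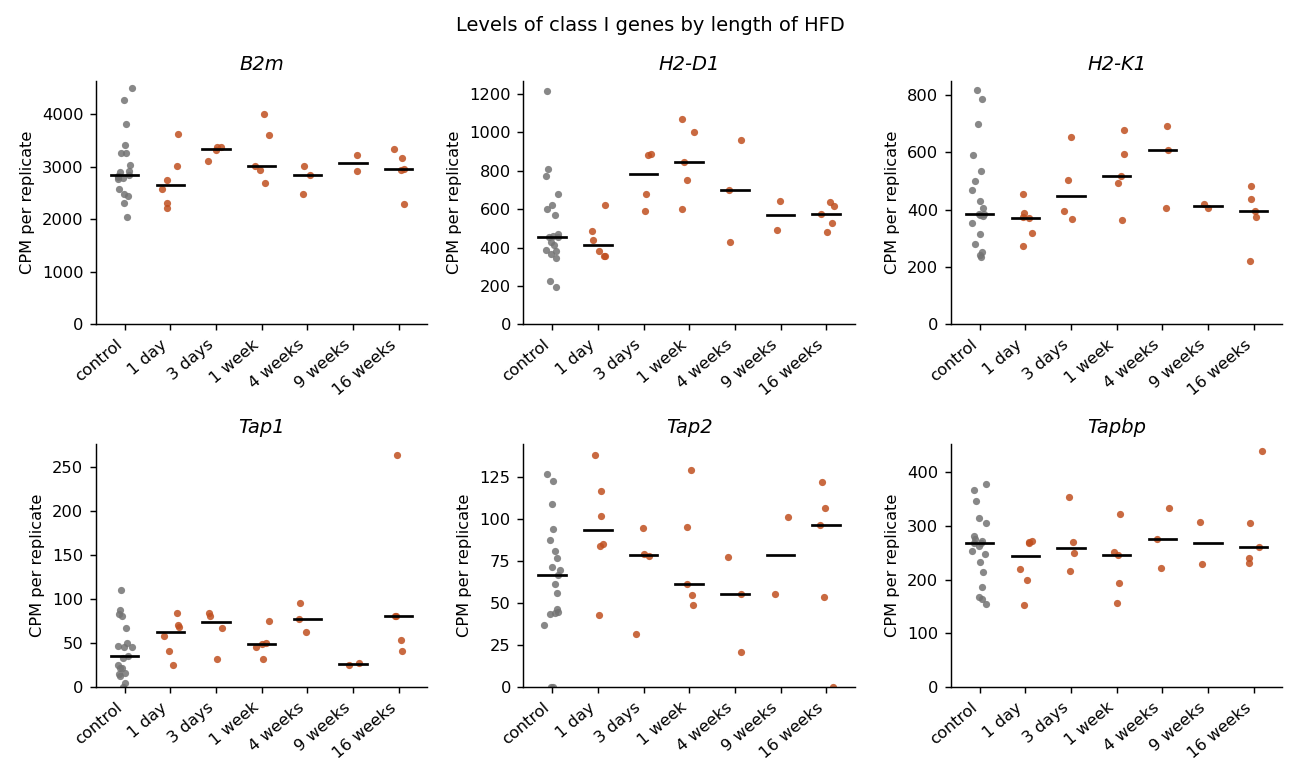
Level of each class I gene (CPM, vertical axis from 0) in each replicate by length of HFD, with grey points for control, orange points for HFD and a black bar at the group's median. *H2-D1* medians are 780 CPM at 3 days and 844 CPM at 1 week against 457 CPM in control, and every HFD group of this gene overlaps the control replicates, which reach 1215 CPM.

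Levels of *H2-K1* in the control replicates ran from 234 CPM through a median of 383 CPM to 817 CPM. Its medians in HFD were 371 CPM at 1 day, 448 CPM at 3 days, 516 CPM at 1 week, 608 CPM at 4 weeks, 413 CPM at 9 weeks and 394 CPM at 16 weeks. All 25 HFD replicates lay between 219 and 691 CPM, so only the lowest of them fell outside the control range. Between plates the control level of *H2-K1* varied 2.98-fold, with plate 9 again the highest at 699 CPM.

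*B2m*, the light chain, was seen in 98.6% of wells with a mean of 9.71 UMIs. Control replicates ran from 2038 CPM through a median of 2835 CPM to 4501 CPM. The HFD medians lay between 2655 CPM at 1 day and 3337 CPM at 3 days. The control level varied 1.90-fold between plates, from 2373 CPM on plate 10 to 4501 CPM on plate 9, so plate 9 was the highest control plate for the light chain and both heavy chains.

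The transporter genes were close to the limit of detection. *Tap1* had 285 UMIs and *Tap2* had 382 UMIs over all 1617 wells, and they were seen in 14.2% and 19.4% of wells, or 7.57% and 10.2% after thinning. Control replicates ran from 0 through a median of 35.6 to 110 CPM for *Tap1* and from 0 through 66.7 to 127 CPM for *Tap2*. The 1 control replicate without a *Tap1* UMI had 12 wells, and a count of 0 there allows a level of up to 70.0 CPM. The 2 control replicates without a *Tap2* UMI had 7 and 9 wells, and a count of 0 allows up to 100.4 and 124 CPM in them. *Tapbp* was seen in 51.1% of wells, at 156 to 379 CPM with a median of 268 CPM in the control replicates. Its HFD medians spanned only 244 to 276 CPM.

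A fit across all genes with the plate as a term gave the test of each length. The edgeR quasi-likelihood test with Benjamini-Hochberg adjustment was run on 2339 genes that passed a filter on low counts, and the 6 lengths share the same control sums. *B2m*, *H2-D1*, *H2-K1* and *Tapbp* passed that filter, and *Tap1* and *Tap2* did not. At an adjusted p of 0.05 the test called none of these 4 genes at any length, against a background of 0% of genes called in each of the 6 lengths. At an unadjusted p of 0.05, 1 of the 24 member tests passed (*H2-D1* at 16 weeks), where between 96 and 146 of the 2339 genes did so in a length. DESeq2 also called none of the 4 genes.

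*H2-D1* had a log2 fold change above 0 at every length. The values were 0.13 (SE 0.25) at 1 day, 0.30 (SE 0.22) at 3 days, 0.08 (SE 0.21) at 1 week, 0.21 (SE 0.24) at 4 weeks, 0.31 (SE 0.21) at 9 weeks and 0.39 (SE 0.16) at 16 weeks. The last is a 1.31-fold difference with an unadjusted p of 0.0175 and an adjusted p of 0.929 in the edgeR fit. The shared controls mean that the 6 signs are not independent of each other, and with wells of at least 3000 transcripts the values were -0.38 at 1 day and -0.05 at 1 week. Without a plate term the values were 0.73 at 3 days (adjusted p = 0.0524) and 0.73 at 1 week (adjusted p = 0.0542) in edgeR, against 0.30 and 0.08 with it, and the 1-day value was -0.20.

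*H2-K1* was close to control except at 4 weeks. Its log2 fold changes were 0.02 (SE 0.24) at 1 day, -0.20 (SE 0.22) at 3 days, -0.01 (SE 0.20) at 1 week, 0.42 (SE 0.24) at 4 weeks, -0.05 (SE 0.21) at 9 weeks and -0.01 (SE 0.16) at 16 weeks. On plate 4 the 4-week sums stood at 441 and 686 CPM against 234 CPM in the single control sum of 7 wells, and on plate 1 they stood at 406 against 377 CPM. Without plates 4 and 5 the 4-week value was 0.12.

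*B2m* stayed between -0.15 (SE 0.16) at 4 weeks and 0.10 (SE 0.12) at 9 weeks, and was 0.08 (SE 0.10) at 16 weeks, the smallest errors of the 4 genes. *Tapbp* had values from -0.29 (SE 0.23) at 1 week to -0.03 (SE 0.26) at 4 weeks, and their sign depended on the plates used. With only plates that hold both groups it stood at 0.30 at 3 days and 0.62 at 4 weeks. On those plates its HFD mean was above the control mean at 3 days (303 against 167 CPM on plate 4 and 243 against 225 CPM on plate 13) and at 4 weeks (221 against 165 CPM on plate 1 and 305 against 167 CPM on plate 4). No length of either gene differed from control beyond the spread between sums. Leaving out class II wells gave *H2-D1* values of 0.31 at 3 days, -0.07 at 1 week and 0.35 at 16 weeks, none called.

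**Figure D2:**
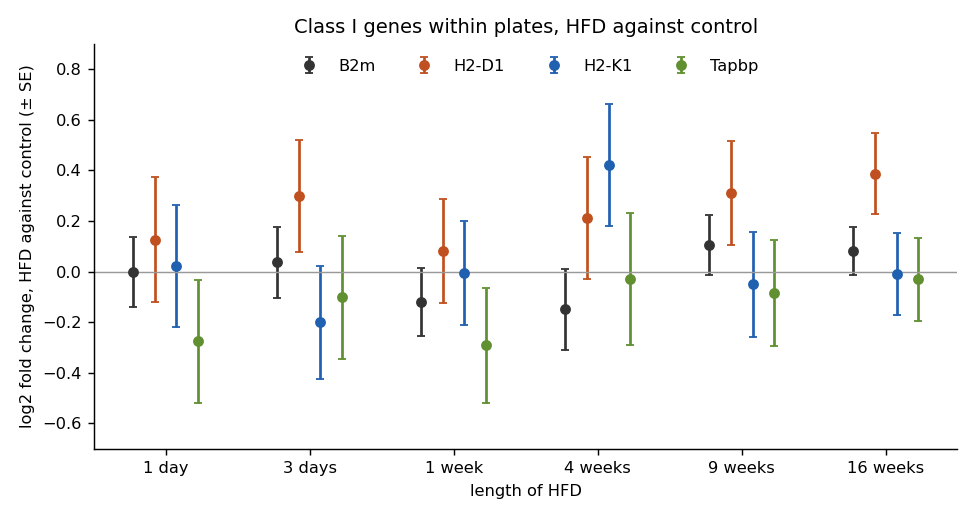
Log2 fold change of HFD against control from the fit with plate as a term (vertical axis) with its SE as bars, for the 4 class I genes that passed the filter, at each length of HFD. *H2-D1* lies above 0 at all 6 lengths and reaches 0.39 at 16 weeks, *Tapbp* lies below 0 at all 6 but stood at 0.30 (3 days) and 0.62 (4 weeks) on plates that hold both groups, and no value passed the adjusted threshold.

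For *Tap1* and *Tap2* the difference in CPM within plates was set against an exact permutation of the diets among replicates, two-sided, in 12 tests whose p-values are unadjusted. *Tap1* at 1 day of HFD was 35.8 CPM higher (p = 0.015, where 0.0025 is the smallest p possible, exact permutation test). On plate 6 the control sums stood at 15.6, 21.9 and 22.2 CPM and the HFD sums at 67.8, 71.0 and 83.9 CPM, without overlap. On plate 8 the control sums of 12.2, 15.3 and 46.0 CPM overlapped the HFD sums of 25.4, 41.3 and 58.3 CPM. These levels rest on 1 to 3 UMIs in each control sum and 2 to 5 UMIs in each HFD sum. In wells with at least 3000 transcripts the difference was -39.4 CPM (p = 0.667, exact permutation test).

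*Tap1* at 16 weeks was 47.5 CPM higher (p = 0.0622, exact permutation test). One replicate, M10, stood at 263 CPM from 6 UMIs and the other 4 between 40.7 and 81.2 CPM. Without M10 the difference was 27.3 CPM (p = 0.24), without M5 31.7 CPM (p = 0.26), and without M6 68.2 CPM (p = 0.0133), by the exact permutation test. The 10 other tests had p of 0.167 or more by the exact permutation test. The 4-week tests of both genes could not fall below 0.167 and the 9-week tests not below 0.0667. The *Tap2* differences were all above 0, from 16.7 CPM at 9 weeks to 37.1 CPM at 1 week, with p between 0.185 and 0.667 by the exact permutation test. None of the 12 tests was adjusted, and differences of this size rest on few UMIs.

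Other genes of the pathway were described from 4 lists besides the class II and interferon lists. Of the 12 other class I loci only *H2-T23*, a nonclassical class I gene, passed the filter, and it had a log2 fold change of -0.58 (SE 0.20, adjusted p = 0.769 in edgeR) at 16 weeks. Of the 6 genes of peptide loading and trimming, *Calr*, *Canx*, *Pdia3* and *Sppl2a* were tested and 0 were called at any length, with list medians between -0.12 at 16 weeks and 0.18 at 1 week beside medians near 0 over all genes tested. Of the 5 genes of the immunoproteasome and its activator 4 were tested. *Psme2*, an activator subunit, stood at 0.80 (SE 0.24, adjusted p = 0.628) and *Psme1* at 0.45 (SE 0.21, adjusted p = 0.967) at 16 weeks in the edgeR fit, while the catalytic subunits *Psmb8* and *Psmb10* stood at -0.07 and -0.02. Of the 11 regulators 3 were tested, among them *Irf2* and *Irf8*, and 0 were called. *Nlrc5*, the transactivator of class I genes, had 68 UMIs in all wells together and did not pass the filter.

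In the class II list 6 of 7 genes were tested and 0 were called. At 4 weeks *H2-Aa* stood at 3.93 (SE 0.97), *H2-Eb1* at 3.62 (SE 0.93), *H2-Ab1* at 3.32 (SE 0.79) and *Cd74* at 3.16 (SE 0.96) on the log2 scale, with adjusted p of 0.128 or more in edgeR. In the same comparison *H2-D1* stood at 0.21 and *H2-K1* at 0.42. Of the HFD lengths, plates 4 and 5 held 3 days, 1 week and 4 weeks, beside a single control sum of 7 wells. Among their 4-week wells, 1 of M20 had 1546 class II UMIs and 1 of M21 had 577, and the next highest had 48. The wells of 1546 and 577 had microglia markers at 2052 and 13028 CPM. The class II values at 4 weeks thus rest largely on few wells. In the interferon list 2 of 14 genes (*Bst2* and *Ifi27*) were tested, and 0 were called. Over the 6 lists 20 of 55 genes passed the filter. Outside the class II list, 5 of 84 tests over the 6 lengths (5.95%) had an unadjusted p under 0.05, beside 4.1% to 6.24% of all genes in a length. They were *H2-T23*, *Psme1* and *Psme2* at 16 weeks and *Calr*, which encodes calreticulin, at 1 day (0.39, SE 0.18) and 3 days (0.56, SE 0.19). In the class II list 13 of 36 tests did, which were those of the 4 genes above at 3 days, 1 week and 4 weeks and *H2-DMa* at 9 weeks (0.52, SE 0.25).

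The light chain and both heavy chains varied together, and tapasin varied apart from them. Over the 68 sums, with log2 CPM centred on each plate, Pearson's r was 0.61 between *B2m* and *H2-D1*, 0.56 between *B2m* and *H2-K1*, and 0.59 between *H2-D1* and *H2-K1*. With *Tapbp* the values were -0.14 for *B2m*, -0.01 for *H2-D1* and -0.19 for *H2-K1*. The 68 sums share plates, and several replicates lie on more than 1 plate, so these values are descriptions. They include no transporter gene, whose counts were too low.

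Among all tested genes, the nearest to *B2m* in these sums were *H2-D1* (0.61), *H2-K1* (0.56) and *Rpl32* (0.53), a ribosomal protein gene. The nearest to *H2-D1* were *Cybb* (0.61), which encodes a subunit of the phagocyte NADPH oxidase, *B2m* (0.61) and *H2-K1* (0.59). The nearest to *H2-K1* were *H2-D1* (0.59), *B2m* (0.56) and *Rpl4* (0.51), another ribosomal protein gene. Over all tested genes the median r with each of the 3 was between -0.02 and -0.01.

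Well by well the same 3 genes were also related, but weakly. After thinning, the median of Spearman's rho over the 13 plates was 0.25 for *B2m* with *H2-D1* and 0.19 for *B2m* with *H2-K1*, both above 0 on 13 of 13 plates. It was 0.24 for *H2-D1* with *H2-K1*, above 0 on 11 of 13 plates. Medians for the pairs with *Tap1*, *Tap2* or *Tapbp* lay between -0.06 and 0.08. In counts this sparse the weak values say little of single cells.

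Among genes with at least as many UMIs, the heavy chains stood out by their spread between wells of the same replicate and plate. The spread is given as the squared coefficient of variation left after the counting error is taken off. It was 1.03 for *H2-D1* and 0.998 for *H2-K1*, against 0.263 for *B2m* and 0.271 for *Tapbp* and a median of 0.477 over the other tested genes. Of the 2338 other tested genes, 235 were above *H2-D1* and 263 above *H2-K1*. Genes with few counts scatter widely in this measure, so each gene is also read beside the other tested genes with at least as many UMIs. Of the 165 such genes for *H2-D1* the median was 0.172 and 1 was higher, which was *Apoe*, which encodes a lipid carrier. Of the 245 for *H2-K1* the median was 0.189 and 2 were higher, *Apoe* and *H2-D1*. For *B2m* 8 of 25 were higher and for *Tapbp* 240 of 531.

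The spread of the heavy chains was much the same without wells of at least 5 class II UMIs and without wells with markers of other cell types. The class II rule did not leave out the 233 wells with 1 to 4 class II UMIs. Without class II wells the values were 0.995 for *H2-D1* and 1.00 for *H2-K1*. Without these wells and without every well that had 3 or more UMIs of another cell type's markers, which left 1535 wells, they were 0.941 and 0.856, with 1 and 4 genes higher. In control wells alone they were 1.39 and 1.19. Over all wells the highest counts were 36 UMIs of *H2-D1* and 26 of *H2-K1*. Both were reached in a well of M20 on plate 4 with 1546 class II UMIs and microglia markers at 2052 CPM. That well is among the class II wells left out above.

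**Figure D3:**
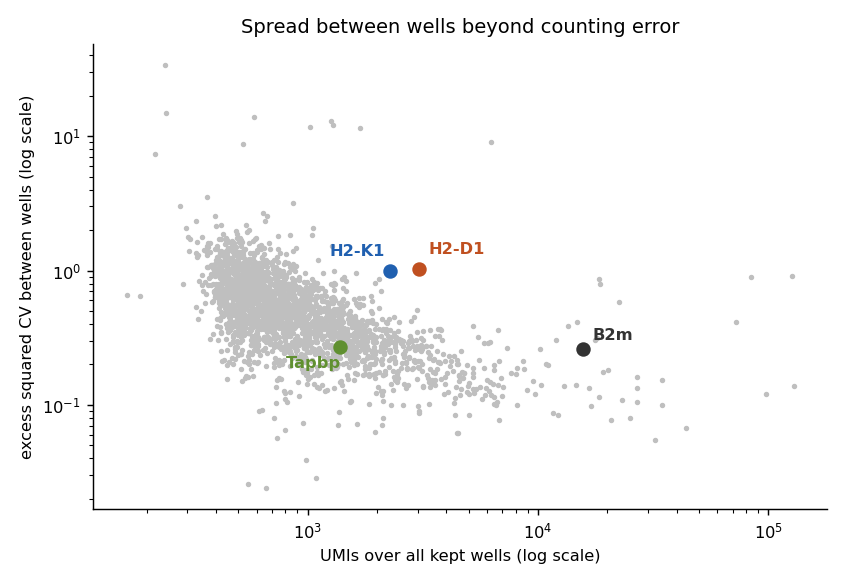
Spread between wells beyond counting error (excess squared coefficient of variation, vertical log axis) against the UMIs of the gene over all 1617 wells (horizontal log axis) for each tested gene with a spread above 0. *H2-D1* at 1.03 and *H2-K1* at 0.998 lie above nearly all genes of their own or higher count, and *B2m* at 0.263 lies nearer to the rest.

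The relation to class II was tested by comparing wells of the same replicate and plate. Class II wells were those with at least 5 UMIs of the invariant chain gene *Cd74* and the chain genes *H2-Ab1*, *H2-Aa* and *H2-Eb1*, summed. Around that cutoff, 16 wells had 4 UMIs, 7 had 5 and 8 had 6. The cutoff was set on UMIs before thinning. On plates 4 and 5 the wells with 5 to 39 were deeper than those with 1 to 4, with medians of 6125 and 4403 UMIs. On these plates 130 wells had 1 to 4 class II UMIs and 34 had 0, against 103 and 1309 on the other plates. Class II wells are thus defined by a count, and may not all be cells that express class II. Of the 41 class II wells, 25 had 5 to 39 UMIs and 16 had at least 40, up to 1546. The test used 6 units, each a replicate on a plate with at least 3 class II wells, from 4 replicates on plates 4 and 5, all on HFD of 3 days, 1 week or 4 weeks. They held 28 class II wells and 72 other wells, and the 4 class II genes were left out of the test.

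Both heavy chains were called higher in class II wells, and the light chain and tapasin were not called. The 6 units are not independent, since M23 and M24 each gave a unit on plate 4 and on plate 5. *H2-K1* had a log2 fold change of 1.01 (SE 0.30, 2.02-fold, adjusted p = 0.0385 in edgeR) and was higher in 6 of 6 units. *H2-D1* had 0.93 (SE 0.28, 1.91-fold, adjusted p = 0.0414 in edgeR) and was higher in 5 of 6 units. *B2m* had 0.20 (SE 0.23, adjusted p = 0.723) and *Tapbp* had 0.58 (SE 0.37, adjusted p = 0.431) in the same edgeR fit. With the 6 units summed to 4 replicates, an alternative chosen after seeing the data, neither heavy chain was called (*H2-K1* 0.96, adjusted p = 0.116, and *H2-D1* 0.76, adjusted p = 0.248, in edgeR). The 2 calls among 4 members tested stand beside 6.83% of the 600 genes tested, or 6.5% called higher.

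In *H2-K1* the class II wells stood against the other wells at 942 against 518 CPM in M20, 447 against 439 CPM in M21, 422 against 273 CPM in M23, and 637 against 328 CPM in M24 on plate 4. On plate 5 they stood at 1041 against 566 CPM in M23 and at 875 against 232 CPM in M24. The M21 pair was level and the other 5 pairs were apart. The M20 class II sum rests mostly on 1 of its 3 wells, which had 1546 class II UMIs and *H2-K1* at 1302 CPM. Its wells with 6 class II UMIs had *H2-K1* at 184 and 530 CPM. In *H2-D1* they stood at 1338 against 997 CPM in M20, 660 against 383 CPM in M23 and 1152 against 609 CPM in M24 on plate 4, and at 1624 against 655 CPM in M23 and 2453 against 733 CPM in M24 on plate 5. M21 went the other way with 223 against 579 CPM. In M20 the well of 1546 class II UMIs had *H2-D1* at 1806 CPM, and the wells of 6 had 184 and 929 CPM. The class II sums hold 4 to 53 UMIs of *H2-D1*, so single pairs are imprecise.

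**Figure D4:**
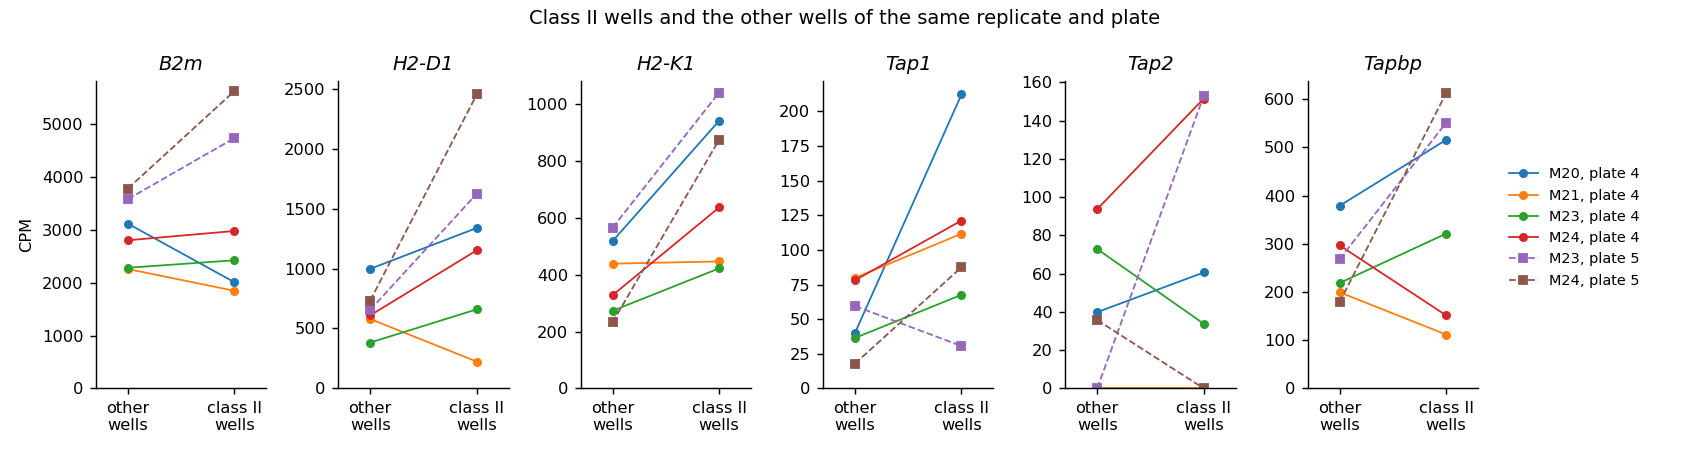
Level (CPM, vertical axes from 0) of each class I gene in the other wells and in the class II wells of each of the 6 units, joined by a line, with circles for plate 4 and squares for plate 5. *H2-K1* is higher in class II wells in 6 of 6 units and *H2-D1* in 5 of 6, and *B2m* in 4 of 6.

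Of the 41 called genes 39 were higher in class II wells, and 30 of these were ribosomal protein genes, which make up 66 of the 600 genes tested (11%). These counts depended on the units and wells used, with 0 genes called without M24 on both plates, 2 without M20 of plate 4, 0 without wells holding markers of other cell types and 14 with the units summed per replicate. With a cutoff of 40 UMIs, chosen after seeing the data, 48 of 109 called genes were higher. Among those with the smallest p were *Rps29* (log2 fold change 1.18), *Rpl32* (1.47), *Rps24* (1.25) and *Rpl23* (1.26). The 2 called lower were *Cxxc5* (-1.87) and *Sparc* (-0.87), which encodes a secreted matrix protein. Of the pathway lists, *Calr* stood at 0.44 (adjusted p = 0.503), *Canx* at 0.30, *Pdia3* at 0.10, *Sppl2a* at -0.31, *Irf8* at -0.62 (adjusted p = 0.177) and *H2-DMa*, which edits class II peptides, at 1.04 (adjusted p = 0.079) in the edgeR fit, and 0 of these 6 were called.

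The calls of the heavy chains depended on which wells and units entered. With DESeq2 *H2-K1* stayed called (adjusted p = 0.0494) and *H2-D1* did not (adjusted p = 0.0637). Leaving out M20 of plate 4 gave adjusted p of 0.135 for *H2-D1* and 0.167 for *H2-K1*, leaving out M23 of plate 4 gave 0.0743 and 0.0516, and leaving out M23 of plate 5 gave 0.23 and 0.138, all in edgeR. Leaving out M24 of plate 4 gave 0.0753 for both genes, and leaving out M24 of plate 5 gave 0.227 for *H2-D1* and 0.145 for *H2-K1* in edgeR. Without M23 on both plates the adjusted p was 0.349 for *H2-D1* and 0.154 for *H2-K1*, and without M24 on both plates 0.533 and 0.39, in edgeR. Leaving out M21 of plate 4 kept both calls (adjusted p = 0.00499 and 0.0147). The log2 fold changes stayed above 0 in all of these fits, from 0.64 to 1.16 for *H2-D1* and from 0.79 to 1.13 for *H2-K1*.

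Markers of monocytes and border-associated macrophages were highest in the wells with the most class II, as given below. On plates 4 and 5, 34 wells had no class II UMI, 130 had 1 to 4, 22 had 5 to 39 and 11 had at least 40. *H2-D1* pooled over each of these classes stood at 636, 695, 703 and 2130 CPM, and *H2-K1* at 385, 442, 392 and 1346 CPM. Pooled, the first 3 classes differed little and the class of at least 40 UMIs stood above them, while the medians over wells of the first 3 classes were 403, 516 and 591 CPM for *H2-D1* and 397, 276 and 282 CPM for *H2-K1*. On the other plates *H2-D1* stood pooled at 489 CPM in the 1309 wells with no class II UMI and 1068 CPM in the 103 wells with 1 to 4, with medians over wells of 342 and 523 CPM. *H2-K1* stood pooled at 408 and 650 CPM there, with medians of 291 and 346 CPM. Both genes stood at 450.2 CPM in the 3 wells with 5 to 39. These wells come from plates that differ in their control level, and they were not compared within plates.

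*B2m* stood at 3018, 3053, 2566 and 4165 CPM in the same order. The 8 microglia markers together stood at 36170, 30429, 27321 and 11309 CPM, and *P2ry12*, a homeostatic microglial receptor gene, at 5264, 3792, 2764 and 912 CPM. *Ccr2*, the chemokine receptor gene of monocytes, stood at 7.85, 5.20, 20.3 and 2582 CPM, and the markers of border-associated macrophages at 23.5, 55.4, 115 and 1027 CPM. Median UMIs per well were 4022, 4403, 6125 and 5285.

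The wells with the most class II thus had fewer microglial and more monocyte and macrophage transcripts as well as more of the heavy chains, and the part of such cells in the heavy chain difference was not tested. Of the 41 class II wells 17 had at least 3 UMIs of another cell type's marker list. Of the 16 wells with at least 40 class II UMIs 11 had a *Ccr2* UMI, against 4 of the 25 wells with 5 to 39 and 31 of the 1576 wells under 5. When wells with markers of other cell types were left out, 2 units with 9 class II wells remained, *H2-D1* stood at 0.52 (SE 0.48), *H2-K1* at 0.51 (SE 0.39) and *B2m* at -0.10 (SE 0.30) on the log2 scale, and edgeR called 0 of 696 genes (16 at an unadjusted p of 0.05). In the same 2 units with all their wells *H2-D1* stood at 0.09 (SE 0.46) and *H2-K1* at 0.42 (SE 0.50), which differ from the values without those wells by no more than 1 SE. The fits held 10 and 9 class II wells and share most of them, so comparing them cannot show the part of other cell types.

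Class II wells under 40 UMIs were also compared on their own, a split chosen after seeing the data. In 3 units with 13 such wells *H2-D1* stood at 0.64 (SE 0.32) and *H2-K1* at 0.22 (SE 0.39) on the log2 scale, with adjusted p of 0.833 and 0.992 in edgeR. In the 11 units with a well of at least 40 UMIs, 16 wells in all, *H2-D1* stood at 1.67 (SE 0.29) and *H2-K1* at 1.43 (SE 0.29). Both values were larger in the wells of at least 40 UMIs, and the difference between the intermediate and the high wells was not tested.

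**Figure D5:**
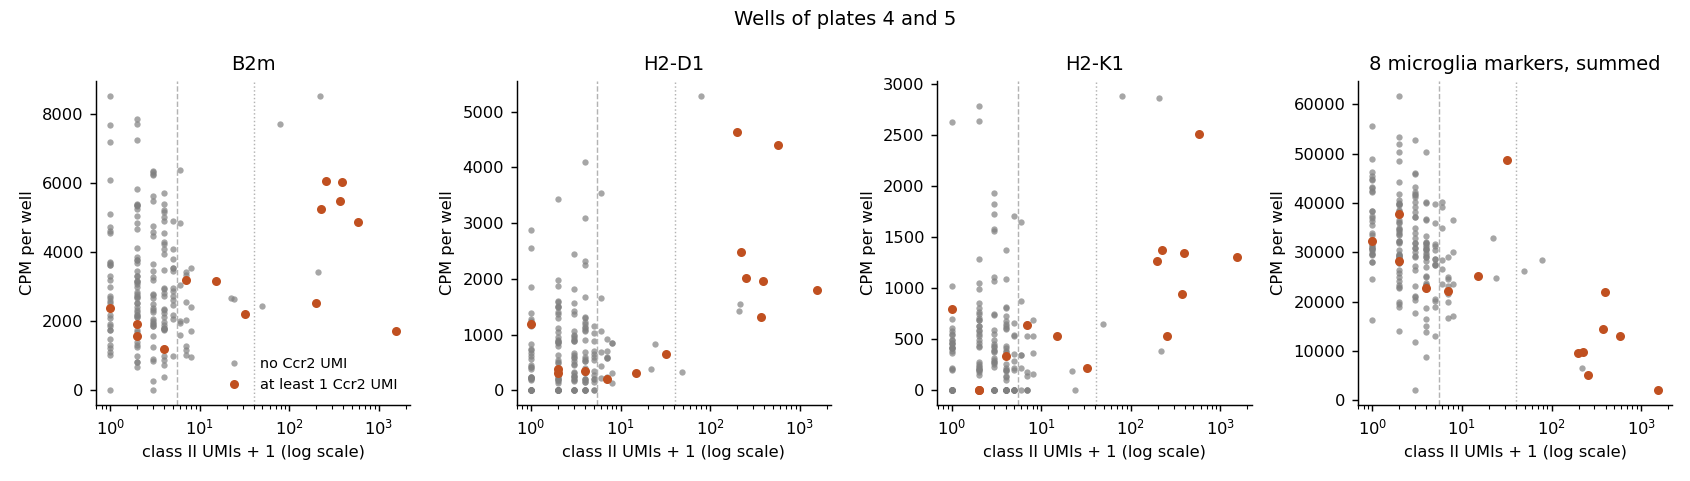
Level in single wells of plates 4 and 5 (CPM, vertical axes) of *B2m*, *H2-D1*, *H2-K1* and the sum of 8 microglia markers against class II UMIs plus 1 (horizontal log axis), with orange points for wells that have a *Ccr2* UMI, a dashed line at the cutoff of 5 UMIs and a dotted line at 40. The 11 wells of at least 40 class II UMIs have *H2-D1* at 2130, *H2-K1* at 1346 and microglia markers at 11309 CPM when pooled, but single wells range widely. A well of 48 class II UMIs has *H2-D1* at 327 CPM and microglia markers at 26241 CPM. A well of 78 class II UMIs, without a *Ccr2* UMI, has *H2-D1* at 5286, *H2-K1* at 2882 and microglia markers at 28351 CPM.

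The 5 wells of at least 40 class II UMIs on the other plates had *H2-D1* at 2053 to 4540 CPM and *H2-K1* at 460 to 1888 CPM per well, with microglia markers of 7157 to 13618 CPM. They had *H2-D1* at 3471 CPM when pooled.

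Across all wells the relation of class I to class II was weak. After thinning to 1500 UMIs, Spearman's rho between the summed class I members and the summed class II genes had a median of 0.15 over the 13 plates, from 0.03 to 0.37, and was above 0 on 13 of 13 plates. It was 0.36 on plate 5 and 0.37 on plate 9, the highest values. Only 2 to 65 wells of a plate had a class II UMI after thinning. Without thinning the median was 0.16, while class I UMIs followed the depth of the well with a median of 0.56. Class I against the interferon response genes had a median of 0.10 after thinning, from -0.11 to 0.33, and was above 0 on 11 of 13 plates.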

How the data were processed

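Single cells were sorted on 13 plates of 192 wells and sequenced by CEL-Seq2. Per the labels and the study's methods, reads were mapped to mm10 with STAR and counted on genes with featureCounts inside snakePipes. The authors deposited, per plate, a table of estimated counts by gene and well without normalization, in which observed UMIs were adjusted for 2 molecules drawing the same one of 4096 tags. A very abundant gene is therefore less precise, and a well's total reflects its sequencing depth. The values were turned back into whole UMIs (100% whole within 0.001) for shares of wells. Only the gene list of the filtered table was used, and its values were not used.

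The 6 members and all lists were chosen with earlier results of these data known. *H2-D1*, *H2-K1* and 4 other listed genes absent from the filtered table were added, so that 17286 genes entered. Diet, length and replicate came from the table of wells, with 7 days counted as 1 week. Wells with at least 1500 transcripts were kept and summed per replicate and plate where at least 5 wells remained, which left out M14 of 1 week (4 wells) and all of M26 on plate 5. The sums were rounded and fitted with edgeR 4.0.16 (quasi-likelihood, TMM, filterByExpr defaults, plate and length as terms, Benjamini-Hochberg adjustment, threshold 0.05) in R 4.3.3, with DESeq2 1.42.0 and limma 3.58.1 as alternatives. The scripts were tested on simulated data. CPM is a sum's share of transcripts times 1000000, over the genes that entered. *Tap1* and *Tap2* were compared by exact permutation in scipy 1.17.1. Python 3.11.15, numpy 2.4.6, pandas 2.3.3 and matplotlib 3.10.9 were used. Doublets were not called, as each well received 1 sorted cell.

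Named genes are the 6 members, tested genes of the pathway lists (by name where called, otherwise up to 4 of highest level), the 3 genes most like *B2m*, *H2-D1* and *H2-K1*, and the 5 called genes of smallest p in each direction in the class II comparison. *Nlrc5*, *H2-M3*, *Erap1*, *Ccr2* and *P2ry12* are named outside this rule, and so is *Apoe*, after its value was seen. Of the genes that this rule names, 2 are not reported here.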

Additional observations from a re-analysis of the deposited data

Results flagged for a closer look

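*Tap1* at 16 weeks of HFD stood far apart in 1 of the 5 replicates. Replicate M10 of plate 13 had 263 CPM, from 6 UMIs in 8 wells, while the other 4 replicates lay between 40.7 and 81.2 CPM. Its gap to the next replicate took up 0.818 of the whole range of the group, which passes Dixon's limit at the 95% level. This was 1 of 24 groups of 4 to 10 replicates examined, and chance flags about 1 in 20.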

How the results depend on the processing

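Of the 1440 log2 fold changes of *B2m*, *H2-D1*, *H2-K1* and *Tapbp* refitted for the 6 lengths, with 15 alternatives and 45 replicates left out in turn (M14 of 1 week entered no sum of at least 5 wells), 0 had an adjusted p under 0.05, and the smallest was 0.0524. Signs changed as given below, and the cause was not tested.

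Without a plate term the genes called over all genes were 3 at 1 day, 30 at 3 days, 16 at 1 week, 23 at 4 weeks and 1 at 16 weeks, and log2 fold changes with another sign were *B2m* 0.14, *H2-K1* 0.29 (1 week), *H2-D1* -0.20, *H2-K1* -0.26 (1 day), *H2-K1* 0.073, *Tapbp* 0.094 (3 days) and *Tapbp* 0.051 (4 weeks). Without a filter on low counts the calls were 6 at 3 days, 5 at 1 week, 10 at 4 weeks, 3 at 9 weeks and 7 at 16 weeks, with *B2m* 0.0046 (1 day), *H2-K1* 0.085 (1 week), *Tapbp* 0.082 (3 days) and 0.088 (4 weeks). With wells of at least 3000 transcripts the calls were 1 at 1 week, 1 at 4 weeks and 1 at 16 weeks, with *B2m* 0.56, *H2-D1* -0.38 and *Tapbp* 0.29 (1 day), *H2-D1* -0.045, *H2-K1* 0.030 and *Tapbp* 0.21 (1 week), *Tapbp* 0.31 (3 days) and 0.25 (4 weeks). There the differences in CPM were -39.4 for *Tap1* and -12.8 for *Tap2* at 1 day and -35.7 for *Tap2* at 9 weeks, and with sums of at least 10 wells -18.3 for *Tap2* at 3 days and a log2 value of 0.034 for *H2-K1* at 16 weeks.

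Without plates 4 and 5 the calls were 1 at 3 days, 9 at 1 week, 2 at 4 weeks and 2 at 16 weeks, with *H2-K1* -0.00039 (1 day), 0.087 (3 days) and 0.0082 (16 weeks) and *Tapbp* 0.44 (4 weeks). With only plates that hold both groups they were 1 at 1 week and 1 at 9 weeks, with *B2m* 0.0019 (1 day), *H2-K1* 0.10 (3 days) and 0.046 (16 weeks) and *Tapbp* 0.30 (3 days) and 0.62 (4 weeks). With sums per replicate over its plates they were 1 at 3 days, 7 at 4 weeks and 1 at 16 weeks, with *B2m* 0.00034 (1 day) and *Tapbp* 0.064 (4 weeks). DESeq2 called 1 at 9 weeks and gave *H2-K1* 0.021 (1 week). With the replicate as a random block (limma-voom, estimated correlation 0.03) 1 was called at 1 week, *H2-D1* was -0.015 (1 week) and *H2-K1* 0.013 (16 weeks), and no member was called. Wells of at least 1000 transcripts gave *B2m* 0.019 and *H2-K1* -0.012 (1 day) and *H2-K1* 0.041 (16 weeks), RLE size factors *H2-K1* 0.0066 (16 weeks), and the fit without class II wells *H2-D1* -0.068 (1 week) and *Tapbp* 0.0062 (3 days). Chosen after seeing the data, plate 13 split by the weeks in its well names gave *H2-K1* 0.013 (16 weeks), and leaving out wells with markers of other cell types gave *B2m* 0.024 (1 day), *H2-K1* 0.095 (1 week) and *Tapbp* 0.022 (4 weeks). No paired analysis was possible because the diets share no replicate identifier within a set of plates, and equal numbers in different sets were treated as different replicates.

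Leaving out 1 replicate at a time, the calls ran from 0 to 1 at 1 week (without M24), 0 to 4 at 4 weeks (without M7 or M8 of plates 10 to 12, M18 of plate 13, M20, M21, M23 or M24 of plates 4 and 5, or M1 or M2 of plate 7) and 0 to 1 at 16 weeks (without M7 or M8 of plates 10 to 12 or M20). Log2 ranges that crossed 0 were -0.11 to 0.089 for *B2m* (1 day), -0.072 to 0.27 for *H2-D1* (1 week), -0.081 to 0.12 (1 day), -0.10 to 0.24 (1 week), -0.14 to 0.034 (9 weeks) and -0.11 to 0.069 (16 weeks) for *H2-K1*, and -0.23 to 0.079 (3 days), -0.45 to 0.028 (1 week), -0.25 to 0.15 (4 weeks), -0.28 to 0.087 (9 weeks) and -0.10 to 0.10 (16 weeks) for *Tapbp*. *Tap1* at 16 weeks ran from 27.3 to 68.2 CPM, with p of 0.0333 without M4 of plates 10 to 12, 0.0133 without M6 and 0.0467 without M9 by the exact permutation test, and *Tap2* at 9 weeks from -13.8 (without M7) to 47.2 CPM.

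In the class II comparison the genes called were 6 with a cutoff of 3 UMIs (1 member), 0 with a cutoff of 10 (0 members), 27 with RLE size factors (0 members), 12 without a filter (0 members), 68 with units of at least 2 class II wells, and 0 without wells holding markers of other cell types (0 members). DESeq2 called 1 member. Below 40 class II UMIs 0 genes and 0 members were called and with a cutoff of 40 UMIs 109 genes, both chosen after seeing the data. With the units summed per replicate 14 genes and 0 members were called, and in the 2 units left by the marker rule, with all wells, 2 genes and 0 members, both chosen after seeing the data. Leaving out 1 unit or replicate gave 0 genes (M24 on both plates) to 74 genes (M21 of plate 4), with 2 without M20 of plate 4, 14 without M23 and 9 without M24 of plate 5, and 12 without M23 on both plates, and 0 to 2 members. *B2m* stood at -0.061 without a filter, -0.097 without wells with markers of other cell types -0.13 below 40 UMIs and -0.026 in those 2 units with all wells, and *Tapbp* at -0.10 with a cutoff of 10. Shares of wells with a UMI were 64.9%, 59.2%, 14.2%, 19.4% and 51.1% without thinning for *H2-D1*, *H2-K1*, *Tap1*, *Tap2* and *Tapbp*, and 90.0%, 30.3% and 21.9% at 1000 UMIs for *B2m*, *H2-K1* and *Tapbp*. Few UMIs per well limit the transporter genes most.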

Other observations

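*Tap2*, the other subunit of the transporter, had 0 UMIs in the replicate in which *Tap1* was highest (M10 at 16 weeks), so its level could be as high as 132 CPM there. *H2-D1* in the same replicate stood at 614 CPM, inside the range of its group. Among the pathway genes that did not pass the filter, the transactivator *Nlrc5* was seen in 3.34% of wells, the nonclassical gene *H2-M3* in 12.0% and the peptide-trimming enzyme *Erap1* in 7.05%. Depth limits all of these values, and they are levels of RNA only, with no measure of class I protein at the cell surface.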
